A study of Mus musculus with 12 samples.

Results

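The AP-1 subunit genes and early response genes measured here were *Fos*, *Fosb*, *Fosl1*, *Fosl2*, *Jun*, *Junb*, *Jund*, *Egr1*, *Atf3* and *Ier2*. They were chosen by symbol, and the 10 were found among the 25093 genes of the deposited count table. The RNA came from mouse muscle satellite cells, the stem cells of skeletal muscle, sorted by FACS from mice in which *Gli3*, a transcriptional effector of Hedgehog signaling, was intact or deleted. Control mice were Pax7-CreERT2/+;Gli3+/+;R26R-YFP, here *Gli3*+/+, and deleted mice were Pax7-CreERT2/+;Gli3fl/fl;R26R-YFP, here *Gli3*∆/∆. Mice of both genotypes were 3 to 4 months old, carried the Cre and the YFP reporter, and received tamoxifen. The Cre is driven by the *Pax7* locus, so that deletion of exon 8 of *Gli3* was aimed at satellite cells. Quiescent satellite cells (QSCs) came from uninjured hindlimb muscle as α7-INTEGRIN+, CD34+ cells negative for CD31, CD45, SCA1 and CD11b, with 3 libraries per genotype and 2 to 3 mice combined in each. Activated satellite cells (ASCs), sorted 3 days after cardiotoxin injury with 1 mouse per library, made up the other 6 libraries. Their count columns carry names that match no sample label, so they were not used here and the members are compared in the 6 QSC libraries.

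The QSC libraries held 39556784 to 65750131 estimated counts, with the smallest total in *Gli3*+/+ library 1. Levels are given as CPM, counts scaled to a common library size with TMM factors. *Gli3* itself had 11.2, 9.71 and 9.75 CPM in *Gli3*+/+ and 9.54, 10.5 and 6.25 CPM in *Gli3*∆/∆, with a log2 fold change of −0.22 (SE 0.22) and an adjusted p of 0.916 (quasi-likelihood test of edgeR, Benjamini-Hochberg). A count per gene does not separate exon 8 from the rest of the transcript, so this value does not check the deletion. The satellite cell markers were present in every library, with a sum over 10 genes of 4848 to 7383 CPM in *Gli3*+/+ and 5155 to 5514 CPM in *Gli3*∆/∆. The p-values measure the spread between these pooled samples.

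AP-1 is a dimer of basic leucine zipper proteins, in which a JUN protein pairs with another JUN, a FOS or an ATF protein and binds DNA at short palindromic sites. Many of its subunits are encoded by immediate early genes, whose transcription starts within minutes of a growth factor, stress or injury signal through MAP kinases and needs no new protein. In satellite cells these genes are also known to be switched on while muscle is minced, digested and sorted, so RNA of freshly sorted cells is known to carry them at high levels. Muscles here were digested with collagenase and dispase with heated mechanical dissociation before FACS, and cells fixed before isolation were not analysed here.

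AP-1 and early response transcripts were among the most abundant RNAs of sorted QSCs of either genotype, and 9 of the 10 members were at 100 CPM or more in each of the 6 libraries. Together the members took 3.91%, 3.33% and 3.16% of all counts in the *Gli3*+/+ libraries and 3.29%, 3.16% and 2.93% in the *Gli3*∆/∆ libraries. These shares overlapped between the genotypes. None of the 10 members was called different between the genotypes, where a call needs an adjusted p under 0.05 and a fold of at least 1.2 in edgeR's quasi-likelihood test, and 0.351% of all 25093 genes were called (0.187% higher and 0.163% lower), or 0.284% of the 4227 genes with a mean of at least 50 CPM. DESeq2 and limma-voom also called 0 members. One member, *Fosl2*, had an unadjusted p under 0.05, beside 7.11% of all genes. The fitted fold change was below 0 for each of the 10 members, beside 54% of all genes and 59.5% of those 4227 genes. The median log2 fold change of the members was −0.182, against −0.0313 over all genes and −0.0387 over the genes of at least 50 CPM. Bulk RNA cannot tell fewer cells with a transcript from less of it per cell.

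**Figure D1:**
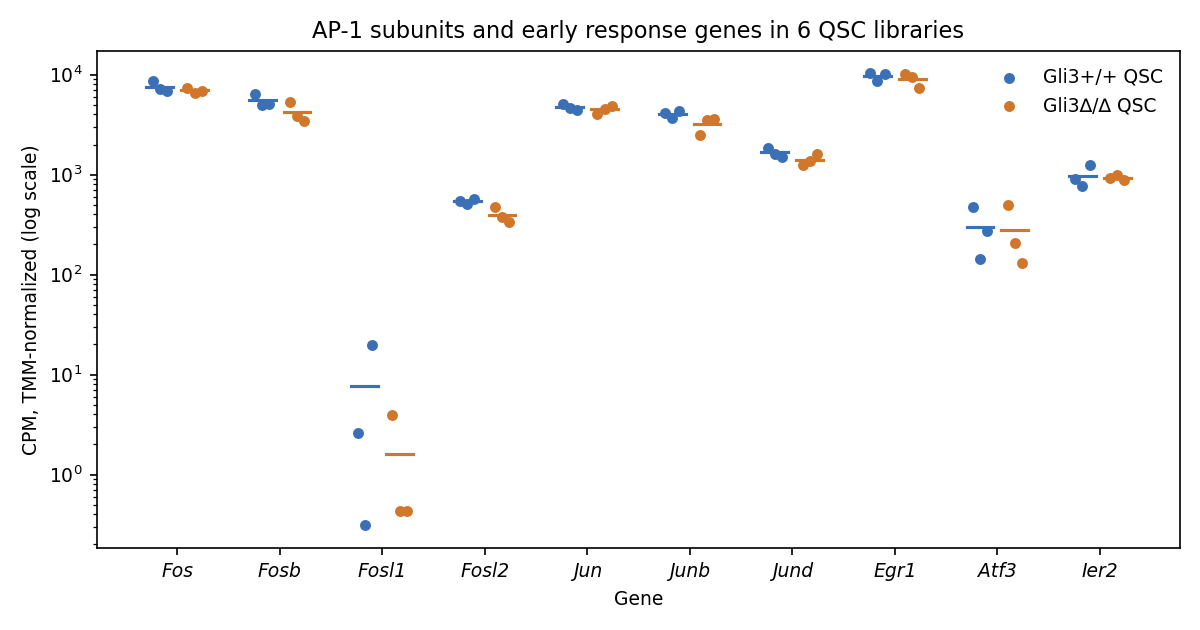
Level of each member in CPM after TMM scaling, on a log scale, with 1 point per QSC library and a bar at the mean of each genotype (3 libraries each). The 9 members other than *Fosl1* lie between 132 and 10299.5 CPM, with *Fosl2* and *Junb* lower in each *Gli3*∆/∆ library than in any *Gli3*+/+ library.

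The FOS family supplies the AP-1 partners that cannot pair with themselves. *Fos* (ENSMUSG00000021250.13; GRCm38 chromosome 12, 85473890 to 85477273, plus strand), the prototype immediate early gene, was at 8604, 7204 and 6848 CPM in *Gli3*+/+ and at 7427, 6609 and 6848 CPM in *Gli3*∆/∆. The groups overlapped, and the whole range over 6 libraries was 1.3-fold. The log2 fold change of *Fos* was −0.12 (SE 0.14, 95% interval −0.43 to 0.20, adjusted p = 0.925 from edgeR, Benjamini-Hochberg adjusted over all genes as for each member). *Fosb* (ENSMUSG00000003545.3; chromosome 7, 19302696 to 19310051, minus strand), a FOS relative that also gives a long-lived truncated protein, was at 6451, 5007 and 5124 CPM in *Gli3*+/+ and at 5305, 3873 and 3452 CPM in *Gli3*∆/∆. Only *Gli3*∆/∆ library 1 reached into the range of the controls. Its log2 fold change was −0.39 (SE 0.19, 95% interval −0.82 to 0.04, edgeR adjusted p = 0.747).

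*Fosl2* (ENSMUSG00000029135.10; chromosome 5, 32135801 to 32157842, plus strand), which encodes FRA-2, was at 543, 513 and 567 CPM in *Gli3*+/+ and at 479.6, 373 and 339 CPM in *Gli3*∆/∆. The groups did not overlap, with means of 541 ± 27.2 and 397 ± 73.3 CPM (SD, n = 3 libraries each). Its log2 fold change was −0.45 (SE 0.16, 95% interval −0.80 to −0.09, unadjusted p = 0.0206), which gave an edgeR adjusted p of 0.557 over all genes. *Fosl1* (ENSMUSG00000024912.5; chromosome 19, 5447547 to 5455946, plus strand), which encodes FRA-1, was the low member of the family. It stood at 2.58, 0.311 and 19.9 CPM in *Gli3*+/+ and at 3.93, 0.433 and 0.433 CPM in *Gli3*∆/∆. These are 104, 21 and 858 estimated counts against 206, 29 and 22, and CPM spanned a 64.0-fold range. *Gli3*+/+ library 3 was the highest and *Gli3*+/+ library 2 the lowest. The log2 fold change of −2.25 (SE 1.3, 95% interval −5.20 to 0.70, edgeR adjusted p = 0.826) became 0.16 without *Gli3*+/+ library 3.

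The JUN family can pair with itself or with the FOS family. *Jun* (ENSMUSG00000052684.4; chromosome 4, 95049034 to 95052222, minus strand), a gene of 1 exon and the founding AP-1 subunit, was at 5129.9, 4687 and 4469 CPM in *Gli3*+/+ and at 4038, 4562 and 4867 CPM in *Gli3*∆/∆ libraries. Its groups overlapped and its 1.27-fold range was the narrowest of the 10 members. The log2 fold change of *Jun* was −0.09 (SE 0.13, 95% interval −0.39 to 0.22, edgeR adjusted p = 0.95). *Junb* (ENSMUSG00000052837.6; chromosome 8, 84974484 to 84978718, minus strand), whose protein is a weaker activator that can counter JUN, was at 4161, 3710.0 and 4278 CPM in *Gli3*+/+ and at 2509, 3547 and 3565 CPM in *Gli3*∆/∆. The groups did not overlap, and *Gli3*∆/∆ library 1 lay well under the other 5 libraries. The log2 fold change of *Junb* was −0.34 (SE 0.17, 95% interval −0.71 to 0.04, edgeR adjusted p = 0.758). *Jund* (ENSMUSG00000071076.6; chromosome 8, 70698949 to 70700616, plus strand), the JUN gene that is expressed more steadily in many resting cells, was at 1859.5, 1624 and 1515 CPM in *Gli3*+/+ and at 1241, 1368 and 1606 CPM in *Gli3*∆/∆. *Gli3*∆/∆ library 3 lay within the range of the controls and the other 2 *Gli3*∆/∆ libraries below it. The log2 fold change of *Jund* was −0.25 (SE 0.15, 95% interval −0.59 to 0.10, edgeR adjusted p = 0.844).

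*Fosl2* and *Junb* were thus the 2 of 10 members whose genotypes did not overlap, both lower in *Gli3*∆/∆, beside 6.57% of all genes and 5.32% of genes of at least 50 CPM that lay apart in that direction. In the other direction 6.39% of all genes lay apart, with 0 members, and 10.8% of genes of at least 50 CPM lay apart in either. With 3 libraries against 3, an exact permutation test of 1 gene cannot give a p below 0.1.

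*Egr1*, *Atf3* and *Ier2* are early response genes outside the FOS and JUN families. *Egr1* (ENSMUSG00000038418.7; chromosome 18, 34859823 to 34864984, plus strand), a zinc finger factor induced through SRF, was at 10299.5, 8551 and 10091 CPM in *Gli3*+/+ and at 10161, 9433 and 7416 CPM in *Gli3*∆/∆. By CPM it ranked 2 among all genes, and its genotypes overlapped with a log2 fold change of −0.10 (SE 0.16, 95% interval −0.46 to 0.26, edgeR adjusted p = 0.951). *Atf3* (ENSMUSG00000026628.13; chromosome 1, 191170296 to 191218039, minus strand), a stress-induced partner of JUN proteins, was at 478, 143 and 275 CPM in *Gli3*+/+ and at 492, 209 and 132 CPM in *Gli3*∆/∆. One library of each genotype, library 1, was high. The 3.74-fold range over all libraries was that of the *Gli3*∆/∆ libraries, beside 3.34-fold within *Gli3*+/+. The log2 fold change of *Atf3* was −0.10 (SE 0.52, 95% interval −1.27 to 1.07, edgeR adjusted p = 0.995), and its sign changed to 0.41 without *Gli3*+/+ library 1, 0.06 without *Gli3*∆/∆ library 2 and 0.23 without *Gli3*∆/∆ library 3. *Ier2* (ENSMUSG00000053560.4; chromosome 8, 84661331 to 84662852, minus strand), a gene of 1 exon induced along with *Fos*, was at 907, 768 and 1237 CPM in *Gli3*+/+ and at 931, 988 and 875 CPM in *Gli3*∆/∆. The *Gli3*∆/∆ values lay inside the range of the controls. Its log2 fold change was −0.06 (SE 0.18, 95% interval −0.48 to 0.36, edgeR adjusted p = 0.987), and was 0.15 without *Gli3*+/+ library 3. That of *Egr1* was 0.02 without *Gli3*∆/∆ library 3.

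**Figure D2:**
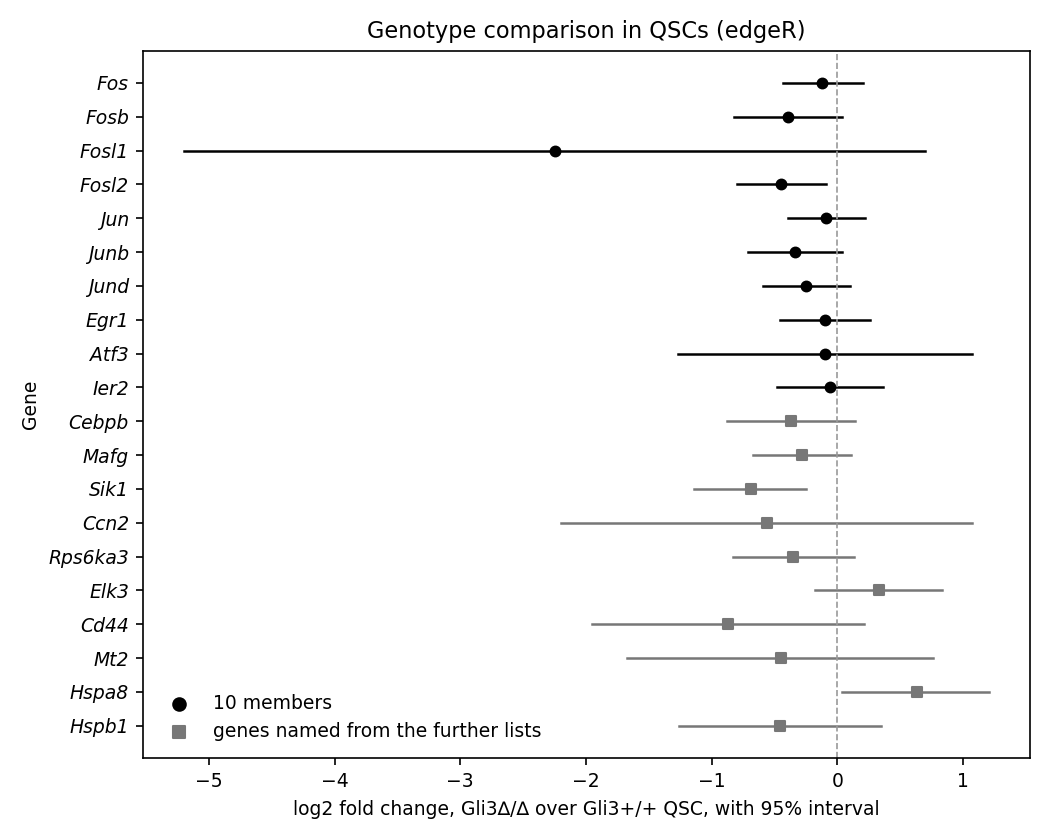
Log2 fold change of *Gli3*∆/∆ over *Gli3*+/+ QSCs with its 95% interval from edgeR (3 libraries per genotype) for the 10 members (black circles) and for the genes named from the further lists (grey squares). Of the members, *Fosl2* alone has an interval that leaves out 0, and the interval of *Fosl1* runs from −5.20 to 0.70.

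The SD of log2 counts that counting alone gives, at the lowest count of each member, was 0.00235 for *Egr1* to 0.0176 for *Atf3* (6686 counts) among the 9 abundant members, and 0.315 for *Fosl1* (21 counts). The within-genotype SD of log2 CPM was larger for each member. It was 0.12 for *Jun*, 0.14 for *Fos* and 0.17 for *Jund*, under the median of 0.18 over genes of at least 50 CPM. It was 0.19 for *Fosl2*, 0.20 for *Egr1*, 0.22 for *Junb*, 0.25 for *Ier2* and 0.27 for *Fosb*. *Atf3* stood at 0.92, where 99.1% of the genes of at least 50 CPM had a smaller SD. *Fosl1*, at 2.42, is below that level of expression and was not ranked among them.

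Levels of different genes were compared as CPM per kilobase of merged exons, the union of all annotated exons of a gene. This length can exceed that of the transcripts present. The order, the ranks and the family shares per kilobase depend on it. *Fos* was the highest member, at 3211 ± 395 per kilobase in *Gli3*+/+ and 2959.7 ± 179 in *Gli3*∆/∆ (SD, n = 3 each), and ranked 8 of 25080 genes. *Egr1* followed at 2079.7 CPM per kilobase over the 6 libraries, *Junb* at 1577, *Jun* at 1450.5, *Jund* at 920.5, *Fosb* at 779.9 and *Ier2* at 625. These 7 genes all ranked within the first 83 of the table. *Atf3* was lower at 134 CPM per kilobase, *Fosl2* at 48.5 and *Fosl1* at 2.26, with ranks of 309, 802 and 10545. The order differs from that by CPM, in which *Fosb* (6243 merged exon bases) came before *Jun* (3189 bases) and *Junb* (2301 bases). Between neighbours in this order the ranges over 6 libraries did not touch for *Fos* and *Egr1*, *Jun* and *Jund*, *Ier2* and *Atf3*, *Atf3* and *Fosl2*, or *Fosl2* and *Fosl1*. They overlapped for *Egr1* and *Junb*, *Junb* and *Jun*, *Jund* and *Fosb*, and *Fosb* and *Ier2*, so the order of those pairs is not set beyond their spread. *Fosb* exceeded *Ier2* in 4 of 6 libraries, and *Junb* exceeded *Jun* in 5 of 6.

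Ratios within a library do not depend on the scaling between libraries. Of the FOS family per kilobase, *Fos* made up 77.0%, 78.2% and 76.6% in *Gli3*+/+ and 77.8%, 81.0% and 83.2% in *Gli3*∆/∆, and *Fosb* 21.8%, 20.5% and 21.6% against 20.9%, 17.9% and 15.8%. *Fosl2* made up 1.0% to 1.54%. The shares of *Fos* overlapped between genotypes. In the JUN family the transcripts were more evenly spread. *Jun* made up 35.5%, 36.2% and 33.6% per kilobase in *Gli3*+/+ and 40.8%, 37.7% and 37.8% in *Gli3*∆/∆, and these did not overlap. *Junb* held 39.9%, 39.8% and 44.6% against 35.2%, 40.7% and 38.4%, and *Jund* 24.6%, 24.0% and 21.8% against 24.0%, 21.6% and 23.8%, and both overlapped. The ratio of *Junb* to *Jun* per kilobase was 1.12, 1.10 and 1.33 in *Gli3*+/+ and 0.861, 1.08 and 1.02 in *Gli3*∆/∆. That of *Jund* to *Jun* was 0.693, 0.663 and 0.648 against 0.587, 0.573 and 0.631. These 2 of the 6 ratios computed did not overlap between genotypes and the other 4 did, which is given as a description without a test. Both ratios that lay apart have *Jun* as the denominator, so they are not independent of each other or of the share of *Jun*. No share over all genes was computed for ratios. The 13% of genes that did not overlap in either direction refers to CPM of single genes. *Junb* overlaps *Prdx2* (77.9 CPM), *Jun* overlaps the antisense gene *Junos* (1.41 CPM) and *Jund* overlaps the antisense gene *Gm11175* (3.6 CPM), each on the opposite strand. *Fosl1* overlaps *Ccdc85b* (15.4 CPM) in the same way. The library kit keeps the strand, but the strand setting of the counting is not given in the sources used here.

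Early response promoters are known for short motifs close to the start site. RefSeq start sites on GRCm38.p6 were matched for 7 of the 10 members, and the 250 bases before each were searched on both strands. Shown are the last 150 bases before the start site, 5′ to 3′, of the genes highest and most even (*Fos* and *Jun*) and of *Atf3*, the abundant member that varied most between libraries. They lie at chr12:85473740-85473889 (plus strand), chr4:95052223-95052372 (minus strand) and chr1:191183334-191183483 (minus strand). Capitals mark matches to the CRE core TGACGT, the AP-1-like site TGACATCA, the TATA motif TATAAA and the MEF2 motif.
Fos: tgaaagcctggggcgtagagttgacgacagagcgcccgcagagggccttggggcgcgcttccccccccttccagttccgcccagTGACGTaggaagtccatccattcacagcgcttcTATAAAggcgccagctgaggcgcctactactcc
Jun: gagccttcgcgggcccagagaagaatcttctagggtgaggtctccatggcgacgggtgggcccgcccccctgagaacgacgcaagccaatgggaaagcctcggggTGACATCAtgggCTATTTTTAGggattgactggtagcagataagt
Atf3: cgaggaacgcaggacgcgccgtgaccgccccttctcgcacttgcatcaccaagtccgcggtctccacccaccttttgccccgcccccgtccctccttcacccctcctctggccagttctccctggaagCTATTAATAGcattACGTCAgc
The *Fos* window held TGACGT, the core of the cAMP response element bound by CREB and ATF proteins, at −66 to −61 and TATAAA at −33 to −28, counted back from the start site. The *Jun* window held TGACATCA, an 8-base variant of the AP-1 site known from this promoter, at −45 to −38 and a MEF2 motif at −33 to −24. The *Atf3* window held the reverse complement of TGACGT at −8 to −3 and a MEF2 motif at −22 to −13. Among 32851 promoter windows of the same length, 6.47% held TGACGT, 2.93% TGACATCA, 12.4% TATAAA and 2.92% the MEF2 motif. The canonical AP-1 site TGACTCA (4.46% of windows), the full TGACGTCA that contains TGACGT (1.55%) and the CArG box of SRF (1.47%) were in 0 of the 7 member windows. No window was available for *Fosl1*, *Egr1* and *Ier2*, and sites more than 250 bases before a start site were not searched. GGGCGG was in 5 of 7 (32.7% of windows) and CCAAT in those of *Jun* and *Junb* (33.8%). The windows of *Fos* and *Jun* hold no annotated exon of the gene itself and end at its GENCODE start. Exons of other genes were not checked, and the antisense gene *Junos* spans the window of *Jun*. That of *Atf3* lies at an internal start site with 7 bases in an annotated exon. Of the windows counted but not shown, that of *Fosl2* lies wholly within annotated exons, and that of *Jund* ends at a RefSeq start upstream of the GENCODE start. A match to letters is a description of the sequence, and binding was not measured.

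Across libraries the members did not form 1 block. *Gli3*+/+ library 1 was the highest for 5 members, *Fos*, *Fosb*, *Jun*, *Jund* and *Egr1*, and *Gli3*+/+ library 3 for 4, *Fosl1*, *Fosl2*, *Junb* and *Ier2*. *Atf3* was highest in *Gli3*∆/∆ library 1, where the 3 JUN genes were lowest. *Gli3*∆/∆ library 3 was lowest for *Fosb*, *Fosl2*, *Egr1* and *Atf3*. As log2 CPM minus the mean of each gene over the 6 libraries, the median of the 10 members was 0.24, 0.01 and 0.12 in *Gli3*+/+ and 0.05, −0.14 and −0.21 in *Gli3*∆/∆. The highest median of a *Gli3*∆/∆ library thus lay between those of *Gli3*+/+ libraries.

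**Figure D3:**
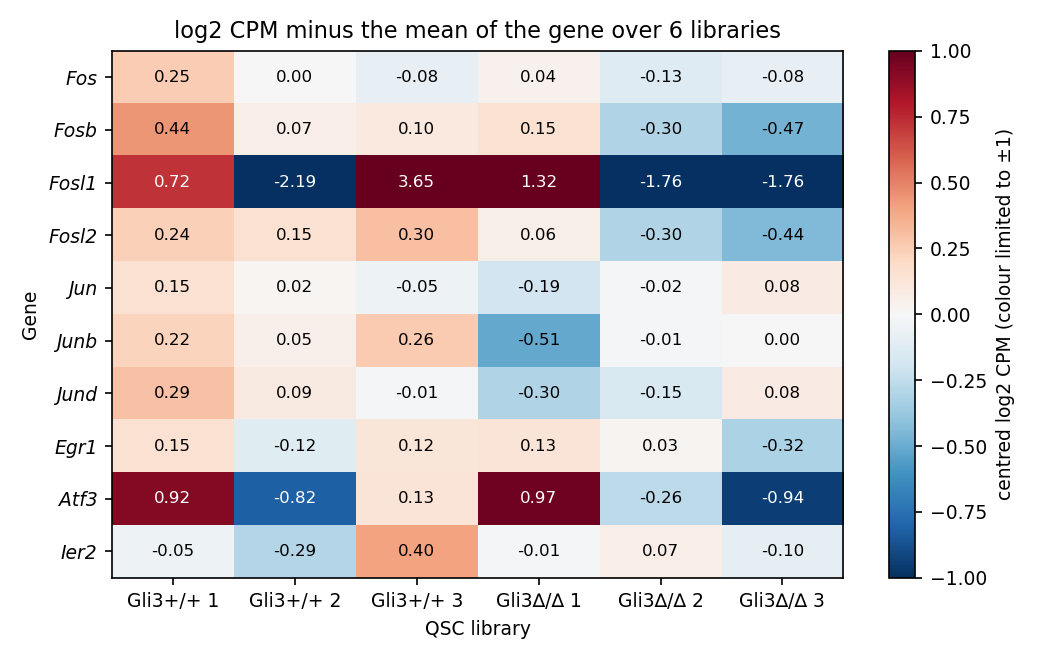
Log2 CPM of each member minus its mean over the 6 QSC libraries, in rows by gene and columns by library, with the value in each cell and colours limited to ±1. *Jun* and *Fos* stay within −0.19 to 0.25 while *Atf3* runs from −0.94 to 0.97 and *Fosl1* from −2.19 to 3.65.

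Markers of other cells moved with some of these libraries, and their part in the members' values was not tested. *Gli3*+/+ library 1 had the highest summed level of the 6 macrophage markers (25.4 CPM, against 10.1 to 16.1 in the other 5 libraries), of the 4 neutrophil markers (17.9 against 0.812 to 9.91) and of the 5 endothelial markers (212 against 134 to 163). Of the endothelial markers, *Cdh5*, *Kdr* and *Emcn* were highest in that library. *Tek* (117 CPM there) was higher in *Gli3*+/+ library 2 (120.3 CPM), and *Pecam1* (39.3 CPM there) in *Gli3*∆/∆ library 3 (40.0 CPM). Of the macrophage markers, *Cd68* (7.62 CPM there) was higher in *Gli3*+/+ library 2 (9.09 CPM). *Csf1r* (1.24 CPM there) was higher in *Gli3*∆/∆ library 1 (1.49 CPM), and the rest were highest in *Gli3*+/+ library 1. *Gli3*+/+ library 3 had the highest sum of the 5 mural markers (412 against 165 to 235) and of the 6 fibro-adipogenic markers (887 against 550.4 to 799). Of these markers, only *Acta2* (347 CPM) and *Col1a1* (332 CPM) were highest there. *Rgs5*, *Pdgfrb*, *Pdgfra*, *Lum* and *Ly6a* were highest in *Gli3*+/+ library 1. The 5 Schwann cell markers summed to 70.1 to 103 CPM in *Gli3*+/+ and to 33.9 to 49.3 CPM in *Gli3*∆/∆, each of them lower in *Gli3*∆/∆ without overlap. None of the 5 was called by edgeR's quasi-likelihood test, and 4 had an unadjusted p under 0.05, beside 6.57% of all genes lower without overlap and 7.11% at that p. The 4 lymphocyte markers summed to 1.71 to 2.89 CPM over both genotypes. The 5 erythroid and platelet markers summed to 23.9 to 228 CPM in *Gli3*+/+, again highest in library 1, and to 21.6 to 109 CPM in *Gli3*∆/∆. The 5 commitment markers summed to 129 to 171 CPM against 135 to 159.9 CPM, most of it *Myod1* (log2 fold change −0.14). *Myog*, at 4.94, 2.61 and 6.31 CPM against 14.2, 9.67 and 9.05 CPM, was higher in *Gli3*∆/∆ without overlap (log2 fold change 1.25, edgeR adjusted p = 0.297). So was *Myh3*, at 1.51, 0.252 and 0.371 CPM against 2.16, 2.12 and 4.58 CPM (log2 fold change 2.08, edgeR adjusted p = 0.446). Only *Myod1* of the 5 was lower, and 6.39% of all genes were higher without overlap. Not one marker was at 0 in all libraries.

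*Fos* varied little over the 6 libraries, with an SD of log2 CPM of 0.14 against a median of 0.18 over genes of at least 50 CPM, so that a small difference from it mostly picks other genes that varied little. By the root mean square difference of centred log2 CPM, among 4226 genes of at least 50 CPM, the closest were *Capn7*, a calpain protease (0.043, mean of 71.8 CPM), *Phf20*, a chromatin reader (0.053), the predicted gene *Gm12191* (0.061), *Arhgap5* (0.062), and *Hjurp*, a chaperone of the centromeric histone (0.063). The median gene differed from *Fos* by 0.221. Among the members *Jun* ranked 331 (0.13), *Jund* 791 (0.159), *Egr1* 813 (0.161), *Fosb* 1933 (0.211), *Fosl2* 2384 (0.236), *Junb* 2899 (0.271), *Ier2* 2909 (0.272) and *Atf3* 4140 (0.679). *Junb*, *Ier2*, *Fosl2* and *Atf3* thus differed more from the nearly flat *Fos* than the median gene did.

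Further lists set the members beside the rest of their pathway, and 0 of their genes were called by edgeR's quasi-likelihood test, DESeq2 or limma-voom. As background for the number lower in each list, 54% of all genes and 59.5% of genes of at least 50 CPM were below 0. The other bZIP partners of AP-1, 22 genes that encode ATF, CREB, MAF, CEBP and related proteins, had a median log2 fold change of −0.10, with 18 lower in *Gli3*∆/∆ and 0 at an unadjusted p under 0.05. Of these *Cebpb*, a stress-responsive activator, was at 494, 361 and 630.2 CPM against 302, 403 and 444 CPM (log2 fold change −0.37, SE 0.22, edgeR adjusted p = 0.843). *Mafg*, a small MAF protein that pairs with NRF2, was at 102, 108 and 144 CPM against 111, 93.4 and 86.7 CPM (log2 fold change −0.28, SE 0.17, edgeR adjusted p = 0.843). The genotypes overlapped for both. One gene of the 22 (4.55%), *Atf2*, lay apart (84.8, 85.1 and 88.8 CPM against 83.5, 75.2 and 82.6 CPM), beside 13% of all genes. *Atf2* is named after its values were seen.

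Of the other early response genes, 35 were in the table, with a median of −0.19. Of these, 27 had a log2 fold change below 0, beside 54% of all genes. At an unadjusted p under 0.05 there were 3, *Sik1*, *Socs3* and *Ier5l*, and 4 did not overlap between genotypes, these 3 and *Btg2*. These are 8.57% and 11.4% of the list, near the 7.11% and 13% over all genes. *Sik1*, a salt-inducible kinase and a target of CREB, was at 916, 689 and 1102 CPM in *Gli3*+/+ and at 611, 599 and 464 CPM in *Gli3*∆/∆. Its log2 fold change was −0.69 (SE 0.2, 95% interval −1.14 to −0.25, unadjusted p = 0.00663), with an edgeR adjusted p of 0.375. *Socs3*, the feedback inhibitor of cytokine receptors, was at 2417, 2432 and 2310.2 CPM against 1868, 2016 and 1989 CPM (edgeR adjusted p = 0.674). *Socs3*, *Ier5l* and *Btg2* are named because so few genes lay apart, after their values were seen. *Ccn2*, a secreted matrix protein induced by SRF and YAP, was at 68.6, 102 and 578 CPM against 265, 96.4 and 146 CPM, with the high value in the library that was highest for *Fosl1* (log2 fold change −0.56, SE 0.72, edgeR adjusted p = 0.932).

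The genes upstream of AP-1, SRF with its cofactors and the MAP kinases, numbered 20 in the table. Of these 15 were below 0, beside 54% of all genes, with a median of −0.08 and 0 at an unadjusted p under 0.05. *Rps6ka3*, which encodes the kinase RSK2, was at 197, 185 and 304 CPM against 204, 182 and 152 CPM (log2 fold change −0.35, SE 0.21, edgeR adjusted p = 0.843). *Elk3*, an SRF cofactor, was at 17.7, 13.1 and 10.1 CPM against 16.3, 19.7 and 15.1 CPM (log2 fold change 0.33, SE 0.22, edgeR adjusted p = 0.87). Their genotypes overlapped. Those of *Map2k1* (62.0, 56.7 and 65.8 CPM against 49.1, 52.8 and 50.8 CPM) and *Mapk14* (108, 110.4 and 108 CPM against 90.3, 94.9 and 89.1 CPM), a MAP kinase kinase and the p38α kinase, did not. These are 2 of the 20 genes, beside 13% of all genes, and are named after their values were seen. Of 18 genes often cited as AP-1 targets, 14 were below 0, beside 54% of all genes, with a median of −0.36. At an unadjusted p under 0.05 there were 0. Only 9 of the 18 had a mean of at least 10 CPM. Genes near 0 CPM enter that median, such as *Mmp3* (−4.78, 0 CPM in each *Gli3*∆/∆ library). Among the 9, *Ccnd1* (0.42), *Plau* (0.29) and *Gja1* (0.19) were above 0 and the rest below. *Cd44*, a hyaluronan receptor, was at 45.6, 29.3 and 137 CPM against 42.2, 39.9 and 33.7 CPM (log2 fold change −0.87, SE 0.48, edgeR adjusted p = 0.803). *Mt2*, a metallothionein, was at 460.3, 807 and 2431 CPM against 1298, 662 and 738 CPM (log2 fold change −0.45, SE 0.54, edgeR adjusted p = 0.925). *Gli3*+/+ library 3 held the highest value of both, as it did for *Fosl1* and *Ccn2*.

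Heat shock genes are also known to be induced while muscle is dissociated. Of 13 genes 12 were below 0, with a median of −0.13, beside 54% of all genes and 59.5% of genes of at least 50 CPM. Of the 12, *Hspa5* (−0.03), *Hspe1* (−0.03) and *Dnajb4* (−0.04) lay close to 0. The exception, *Hspa8*, the constitutive HSC70 chaperone, was at 2209, 1489.9 and 2204 CPM in *Gli3*+/+ and at 4235, 2200.3 and 2669.8 CPM in *Gli3*∆/∆. Its log2 fold change was 0.63 (SE 0.26, 95% interval 0.04 to 1.21, unadjusted p = 0.0384), with an edgeR adjusted p of 0.665. *Hspb1*, a small heat shock protein, was at 679, 273 and 265 CPM against 327, 225 and 336 CPM (log2 fold change −0.46, SE 0.35, edgeR adjusted p = 0.895). Like *Fos* and *Fosb*, *Hspb1* was highest in *Gli3*+/+ library 1. The summed level of the 13 genes was 18777 to 33616 CPM in *Gli3*+/+ and 21702 to 26748 CPM in *Gli3*∆/∆, inside the range of the controls.

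The deposited comparison tables also give each gene's mean normalized count as the authors' value. It is the same in all 4 tables, some of which hold ASCs, so it was taken as a mean over QSC and ASC libraries together. Set against the mean normalized count of the 6 QSC libraries, the authors' mean of *Fos* was 188605 against 378477, a ratio of 0.498. The median ratio was 0.921 over 13181 genes with a QSC mean of at least 100. *Fosb* had a ratio of 0.473, *Egr1* 0.476, *Ier2* 0.502, *Jun* 0.505, *Junb* 0.51, *Jund* 0.524, *Atf3* 0.549 and *Fosl2* 0.605. These 9 members lay below the median ratio, and for *Fosb* 1.26% of genes and for *Fosl2* 11.5% lay lower still. Because the authors' mean was taken to include the QSC libraries, the ratio has a lower limit even for a gene without ASC counts. That limit is about the share of the 6 QSC libraries among the 12, up to the scaling. Ratios of 0.473 to 0.549 lie close to it. The ratio does not give the fold between ASCs and QSCs. *Fosl1* went the other way from these 9, with 2571 against 239 and a ratio of 10.7, above 99.5% of genes. The QSC mean of *Fosl1* rests on *Gli3*+/+ library 3, without which it was 80.5 and the ratio 31.9, an alternative chosen after seeing the data. The 2 means were scaled on different sets of libraries, no error can be given for the authors' mean, and ASCs of the 2 genotypes cannot be told apart in it.

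**Figure D4:**
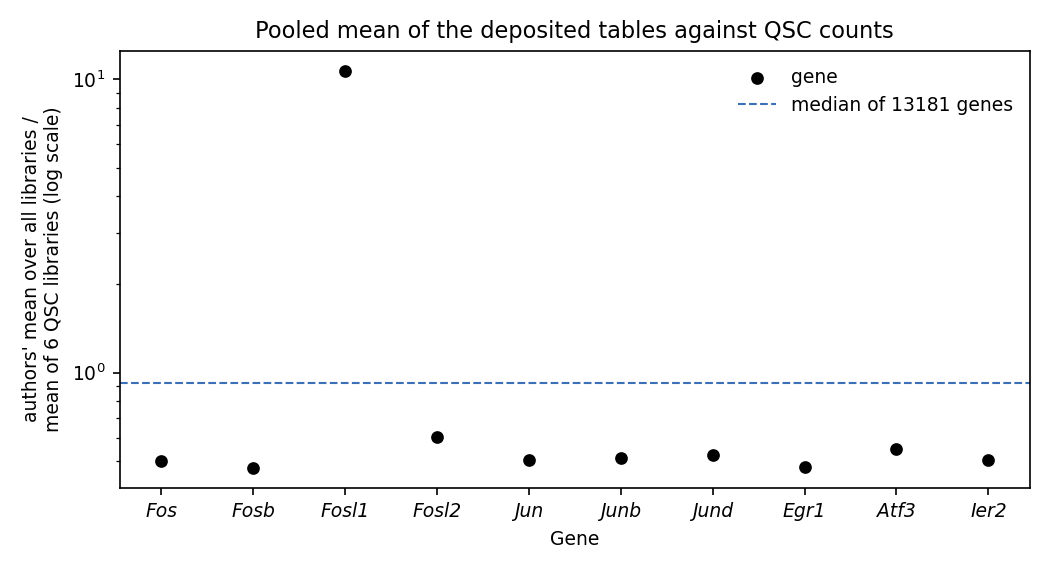
Ratio of the authors' mean normalized count in the comparison tables to the mean of the 6 QSC libraries for each member, on a log scale, with the median over 13181 genes (0.921) as a dashed line. *Fosl1* lies at 10.7 and the other 9 members between 0.473 and 0.605.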

How the data were processed

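Poly(A) RNA of sorted satellite cells was sequenced with a strand-keeping kit. The authors ran salmon against the GENCODE vM19 transcripts of GRCm38, summed to genes with tximport, kept genes with 5 reads or more in 2 samples or more, and deposited estimated counts. Because salmon splits ambiguous reads, 49.2% of the QSC values were not whole. The signal column of the 4 deposited comparison tables is a mean count after the authors' size factor scaling. The fold changes and p-values of those tables were not used. Of 12 library columns, 6 match a sample title, and the other 6 were not used, so the planned ASC comparisons were not run.

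Rounded counts of 3 libraries against 3 entered the quasi-likelihood test of edgeR 4.0.16 in R 4.3.3, with TMM scaling, Benjamini-Hochberg adjustment over 25093 genes, no further filter and no replicate block. In its place were tried limma 3.58.1 (voom with quality weights), DESeq2 1.42.0, other scalings and filters, the replicate block, no fold minimum and leaving out each library. The tests were tested on simulated data. Library totals were 39556784 to 65750131 counts.

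The members and lists were chosen with earlier results of these data known. From each further list, genes called were named, otherwise the 2 with the largest fold among those of at least 10 CPM; for likeness, the 5 genes closest to *Fos*. *Cyr61*, *Ctgf*, *Mkl1* and *Mkl2* are older symbols of listed genes, and *Mmp10* was not analysed here. Exon lengths and positions come from GENCODE vM21 (99.9% of identifiers found, 96.3% with the same version; *Fosl1* differs in version), promoters from RefSeq. Centred values used a prior count of 2.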

Additional observations from a re-analysis of the deposited data

How the results depend on the processing

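In the comparison of *Gli3*∆/∆ with *Gli3*+/+ QSCs, the number of members called was 0 under each of the 14 alternatives, and the lowest adjusted p of any member was 0.309 (*Fosl2*, limma-voom). Of 140 log2 fold changes of members under an alternative, 133 kept their sign. The 7 others were *Ier2* at 0.067 with limma-voom and 0.15 without *Gli3*+/+ library 3, *Fosl1* at 0.16 without *Gli3*+/+ library 3, *Atf3* at 0.41 without *Gli3*+/+ library 1, 0.06 without *Gli3*∆/∆ library 2 and 0.23 without *Gli3*∆/∆ library 3, and *Egr1* at 0.022 without *Gli3*∆/∆ library 3. Leaving out 1 library at a time gave log2 fold changes of −4.12 to 0.16 for *Fosl1*, −0.81 to 0.41 for *Atf3*, −0.20 to 0.022 for *Egr1* and −0.20 to 0.15 for *Ier2*. Over all genes, 88 were called by edgeR, 384 by DESeq2 and 48 with at least 10 counts in every library, where 16759 genes were tested; leaving out 1 library gave 58 (without *Gli3*∆/∆ library 3) to 103. The cause of these differences was not tested. The replicate number as a block gave 79 genes and 0 members, and deviations of libraries with the same number correlated at −0.182, −0.0667 and −0.0474, so the numbers were not taken to pair the libraries. Library totals without TMM gave 55 genes higher and 43 lower, against 47 and 41. The genes closest to *Fos* were the same 5 with a prior count of 0.5. Counting alone gives an SD of log2 counts of up to 0.0176 for the 9 abundant members, and each genotype has 3 libraries. The ratio of the authors' mean to the QSC mean of *Fosl1* rose from 10.7 to 31.9 without *Gli3*+/+ library 3, an alternative chosen after seeing the data.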
